A study of Mus musculus with 9 samples.

Results

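The 9 C-type lectin receptor genes Clec4n, Clec4d, Clec4e, Clec7a, Clec5a, Clec4a1, Clec4a2, Clec4a3 and Clec12a, of the Dectin, Mincle and DCIR families, were followed in macrophages sorted from mouse skin wounds. They were taken by symbol from a table of 18303 genes, and all 9 were found. RNA-seq had been made from 5 libraries at day 14 after injury and from 4 libraries at day 4, all from wild-type C57BL/6J mice and all from cells gated as CD45+, CD11b+ and F4/80+. No agent was given and no allele differed between the days. Nothing in the labels says whether libraries came from separate animals or from pools, so p-values measure the spread between these libraries, which may in part be technical. The libraries held 17982633 to 57809918 counts, of which 48975 to 153779 fell on the 9 genes. The counts of day 14 replicate 5 stop on chromosome 9, and 1503 genes beyond that break were left out of the fit, none of them one of the 9.

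C-type lectin receptors of myeloid cells carry a carbohydrate recognition fold outside the cell and read sugars and glycolipids of fungi, mycobacteria and damaged cells. Dectin-2 (Clec4n), MCL (Clec4d) and Mincle (Clec4e) lack a signalling motif of their own and use the Fc receptor gamma chain (Fcer1g), while Dectin-1 (Clec7a) carries its own activating motif and MDL-1 (Clec5a) pairs with DAP12 (Tyrobp). These receptors act through the kinase Syk and the adaptor Card9 on NF-kappaB and cytokine genes. DCIR (Clec4a2) and MICL (Clec12a) instead carry an inhibitory motif that recruits phosphatases such as the product of Ptpn6 (SHP-1). In skin wounds, macrophages meet both microbes and dead cells, for which Mincle and MICL have known ligands.

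The 9 genes all lie on chromosome 6. Promoters of 8 of them were found in RefSeq on build GRCm38.p6 by symbol, each as 300 bases around an annotated start; Clec4n is named only. The promoters of 4 genes are printed because these genes split between lower (Clec4d, Clec4e) and higher (Clec4a2, Clec12a) levels at day 14. Capitals mark GAGGAA on either strand (read as TTCCTC on the other one), the core bound by the myeloid factor PU.1 (Spi1). Clec4d lies at chr6:123261857-123262156 on the plus strand, Clec4e at chr6:123289822-123290121 on the minus strand, Clec4a2 at chr6:123122440-123122739 on the plus strand and Clec12a at chr6:129349994-129350293 on the plus strand.
Clec4d: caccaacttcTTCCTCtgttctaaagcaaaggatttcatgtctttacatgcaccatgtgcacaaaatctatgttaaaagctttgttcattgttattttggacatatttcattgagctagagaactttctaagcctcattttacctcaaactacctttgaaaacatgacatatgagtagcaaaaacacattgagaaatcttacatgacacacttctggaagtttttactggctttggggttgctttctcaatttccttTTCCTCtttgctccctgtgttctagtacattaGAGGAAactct
Clec4e: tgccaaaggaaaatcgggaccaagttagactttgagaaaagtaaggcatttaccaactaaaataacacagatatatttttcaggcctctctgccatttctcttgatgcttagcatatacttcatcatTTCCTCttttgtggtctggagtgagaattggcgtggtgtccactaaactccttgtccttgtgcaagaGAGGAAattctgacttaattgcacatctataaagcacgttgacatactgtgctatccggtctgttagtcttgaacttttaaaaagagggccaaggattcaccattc
Clec4a2: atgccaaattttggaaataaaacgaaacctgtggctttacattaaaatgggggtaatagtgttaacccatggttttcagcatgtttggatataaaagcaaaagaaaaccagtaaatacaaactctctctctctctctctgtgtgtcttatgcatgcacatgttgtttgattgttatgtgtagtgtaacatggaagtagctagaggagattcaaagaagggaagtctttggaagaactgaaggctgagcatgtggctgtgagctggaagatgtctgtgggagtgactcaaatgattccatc
Clec12a: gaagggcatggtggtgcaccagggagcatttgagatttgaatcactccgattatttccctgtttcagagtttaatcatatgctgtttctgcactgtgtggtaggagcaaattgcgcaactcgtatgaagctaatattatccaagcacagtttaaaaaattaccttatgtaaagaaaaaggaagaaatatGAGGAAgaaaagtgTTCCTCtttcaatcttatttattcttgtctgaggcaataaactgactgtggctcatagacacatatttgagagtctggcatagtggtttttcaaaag

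The core was matched 3 times in the Clec4d promoter, 2 times in that of Clec4e, 2 times in that of Clec12a and 0 times in that of Clec4a2. The promoters of Clec4a2 and Clec12a lie inside the spans that the GENCODE M21 annotation gives these genes. Those spans begin upstream, at chr6:123106428 for Clec4a2 and chr6:129342691 for Clec12a, and the bases around these upstream starts were not searched. Of the other promoters first listed for each gene, those of Clec4a1 and Clec5a held 2 matches each, that of Clec7a held 1 and that of Clec4a3 held 0, while a second promoter listed for Clec4a3 held 1. At least 1 match was found in 28.3% of 32851 promoters of the same length. The C/EBP letters TTGCNNAA, which 10.8% of promoters held, were found in those of Clec4e and Clec12a. The STAT6 motif, TTC and GAA parted by 4 bases and held by 6.95% of promoters, was found in those of Clec7a, Clec4a1 and Clec5a. An NF-kappaB motif, GGGA and CC parted by 4 bases and held by 20.7%, was found in that of Clec4a1 alone among the 8. Both strands were searched, and no match overlapped a match to another motif. Such a match is a run of letters and not a measured binding site.

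Between the days, genes of the family were called in both directions. At day 14 the genes of the activating receptors Dectin-2, MCL and Mincle were lower by 1.41-fold, 1.92-fold and 1.58-fold. Those of the inhibitory receptors DCIR and MICL were higher by 1.42-fold and 1.39-fold. The call of Mincle depended on single libraries, as given below. Dectin-1 (Clec7a) and MDL-1 (Clec5a), also activating, did not pass the test, and neither did Clec4a1 and Clec4a3. Thus 2 of 9 genes were called higher, where 15.9% of the 12289 genes tested were, and 3 of 9 were called lower, where 15.1% were. Together 5 of 9 were called, against a background of 31.1%, and in 4 of 9 the days did not overlap, against 25.3% of all genes tested. Such shares rest on few genes, and a difference between activating and inhibitory receptors as classes was not tested. Not all activating receptors were lower: Clec4b1, the gene of the activating receptor DCAR and not one of the 9, was higher. Its log2 fold change was 2.43, with an edgeR adjusted p of 1.59e-07. The median log2 fold change of the 9 was 0.003 and that of all genes tested 0.0086, while the median of its absolute size was 0.48 for the 9 genes and 0.26 for all genes. Calls are edgeR quasi-likelihood tests with Benjamini-Hochberg adjusted p under 0.05 over all genes tested. With the fibroblast or the dendritic cell markers as a covariate, whose levels did not overlap between days, none of the 5 stayed called. The log2 fold changes with the fibroblast covariate were -0.76 for Clec4d, -0.74 for Clec4e, -0.43 for Clec4n, 0.53 for Clec4a2 and 0.52 for Clec12a. With the dendritic cell covariate they were -0.15, 0.64, -0.21, 0.58 and 0.69 in the same order. Levels are CPM, which set each count against the size of its library, after TMM scaling, and every fold change is that of day 14 over day 4. In bulk RNA, fewer cells of a type and less RNA of a gene per cell cannot be told apart.

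**Figure D1:**
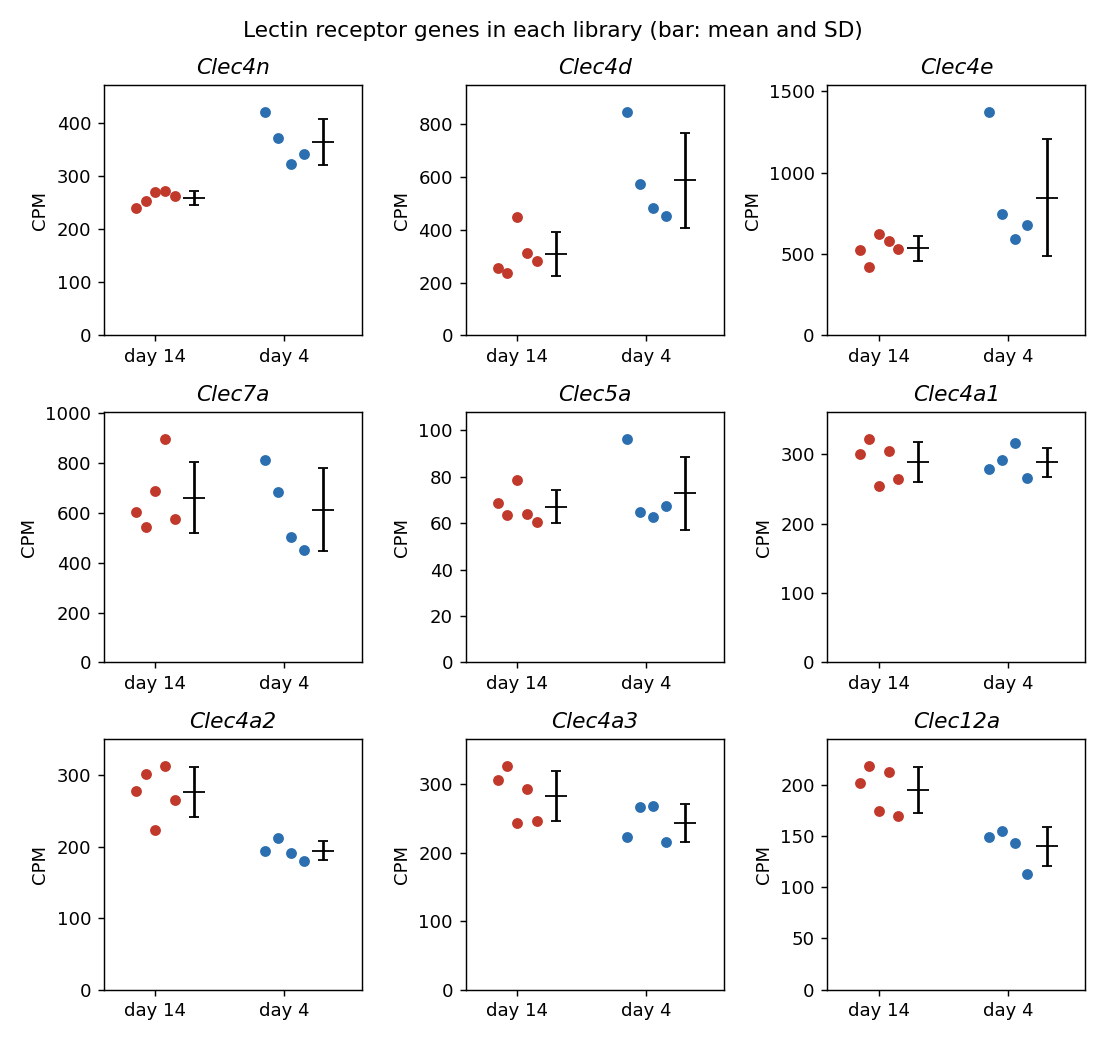
CPM of the 9 lectin receptor genes, 1 point per library, with day 14 (5 libraries, red) left of day 4 (4 libraries, blue) and bars for the mean and SD. The points of the 2 days do not overlap for Clec4n, Clec4d, Clec4a2 and Clec12a, and 1 day 4 library stands high for Clec4d, Clec4e and Clec5a.

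Dectin-2, the product of Clec4n, binds mannans of fungal walls. Clec4n was at 239, 253, 270, 271 and 262 CPM in the day 14 libraries (replicates 1 to 5, the order used for every gene), against 421, 372, 322 and 341 CPM at day 4 (replicates 1 to 4). The day 14 libraries lay close together and all below the day 4 libraries. Clec4n averaged 259 ± 13.3 CPM at day 14 (SD, n = 5) and 364 ± 43.1 CPM at day 4 (SD, n = 4), a log2 fold change of -0.49 ± 0.09 (SE) with an edgeR adjusted p of 0.0018. A share of 0.686% of its 50-base stretches also occurs in the predicted gene Gm44147.

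MCL, the product of Clec4d, is a partner of Mincle in the recognition of the mycobacterial glycolipid trehalose dimycolate. Clec4d was at 253, 238, 448, 313 and 282 CPM at day 14, against 847, 572, 482 and 452 CPM at day 4. Day 14 replicate 3 was the highest of its day and came close to the lowest day 4 library, and the days did not overlap. The means were 307 ± 83.9 CPM at day 14 (SD, n = 5) and 588 ± 180 CPM at day 4 (SD, n = 4). Its log2 fold change of -0.94 ± 0.21 (SE) was the farthest from 0 among the 9 genes, and the edgeR adjusted p was 0.00634. Left without any 1 of the 9 libraries, the value stayed called and lay between -1.12 and -0.71.

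Mincle, the product of Clec4e, binds trehalose dimycolate and a nuclear protein released by dead cells. Clec4e was at 526, 418, 623, 578 and 532 CPM at day 14, against 1374, 747, 589 and 675 CPM at day 4. The days overlapped, since day 14 replicate 3 lay above day 4 replicate 3, and day 4 replicate 1 stood far above the other 8 libraries. The means were 536 ± 76.3 CPM at day 14 (SD, n = 5) and 846 ± 358 CPM at day 4 (SD, n = 4), with a log2 fold change of -0.66 ± 0.22 (SE) and an edgeR adjusted p of 0.0392. This call depended on single libraries: without day 4 replicate 1 the log2 fold change was -0.33 and the edgeR adjusted p 0.0787. It was also lost without day 14 replicate 1, 2, 4 or 5, with edgeR adjusted p-values of 0.0772, 0.0863, 0.0625 and 0.0672, although the log2 fold change stayed between -0.69 and -0.58 in those 4 fits.

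The library with the most neutrophil marker RNA on each day was also the one with the most Clec4d and Clec4e, receptors that neutrophils express too. Of 11 neutrophil markers in the table, 8 lie before the break in day 14 replicate 5 described above. Their summed level was 383, 257, 1820, 380 and 840 CPM at day 14, against 1790, 653, 736 and 756 CPM at day 4. The highest libraries were day 14 replicate 3 and day 4 replicate 1. Among the other libraries the receptors did not always follow the sums: day 14 replicate 5 had a higher sum than replicate 4 but less Clec4d and Clec4e, and Clec4d was highest in the remaining day 4 library with the lowest sum. None of the 6 markers that could be tested was called in either direction by edgeR, and the calprotectin subunit S100a9 averaged 317 ± 338 CPM at day 14 (SD, n = 5) and 480 ± 327 CPM at day 4 (SD, n = 4). Csf3r, another of these markers, was at 105 to 359 CPM at day 14 and 141 to 225 CPM at day 4. The granule protease Elane was at 0 in every day 14 library and averaged 0.00981 ± 0.0196 CPM at day 4 (SD, n = 4), and Mpo averaged 0.314 CPM at day 14 and 0.290 CPM at day 4. Elane and Mpo were picked after their values were seen and are not a measure of how many neutrophils were present. Without those 2 libraries, in a fit chosen after seeing the data, Clec4d was at a log2 fold change of -0.89, Clec4n at -0.44 and Clec4e at -0.39, with edgeR adjusted p-values of 0.00032, 0.00411 and 0.0315. With the mean log2 level of the neutrophil markers as a covariate, Clec4d was at -0.64 and Clec4n at -0.43 with edgeR adjusted p-values of 0.00801 and 0.00872, while Clec4e was at -0.37 with 0.221. The sums in the 7 remaining libraries still differed, at 257 to 840 CPM at day 14 and 653 to 756 CPM at day 4, and the part of neutrophils in these results was not tested.

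**Figure D2:**
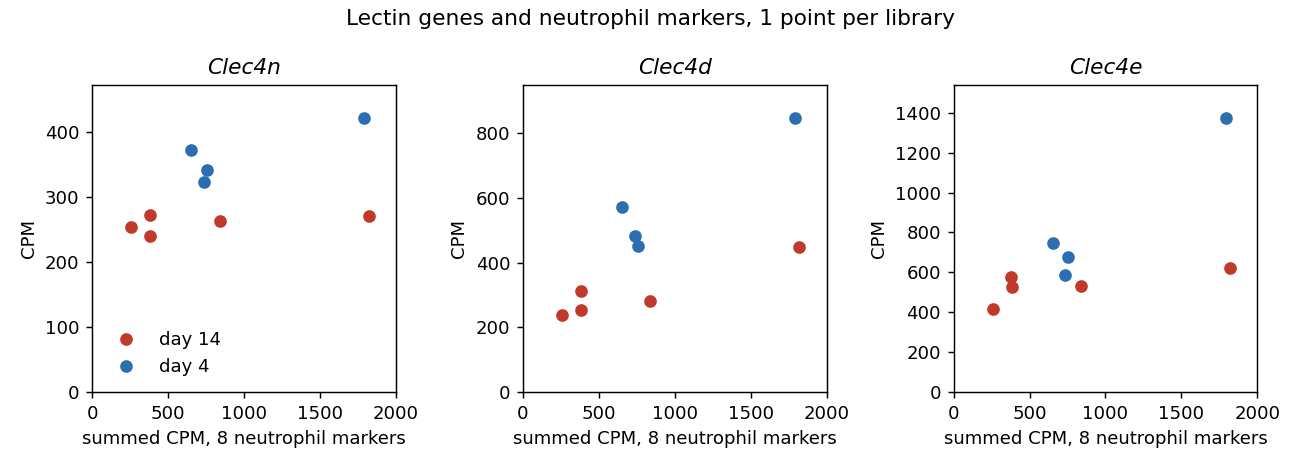
CPM of Clec4n, Clec4d and Clec4e (vertical axes) against the summed CPM of 8 neutrophil markers (horizontal axis), 1 point per library, day 14 in red and day 4 in blue. At like neutrophil marker sums, the day 14 points lie below the day 4 points for all 3 genes, although the days overlap for Clec4e. The day 4 library with a sum of 1790 is the highest for all 3 genes.

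Dectin-1, the product of Clec7a, binds beta-glucans and signals through its own motif. Clec7a was at 604, 543, 686, 896 and 577 CPM at day 14, against 811, 682, 505 and 452 CPM at day 4. The days overlapped widely, and libraries of each day spread by more than the days differed. The means were 661 ± 142 CPM at day 14 (SD, n = 5) and 613 ± 165 CPM at day 4 (SD, n = 4), with a log2 fold change of 0.11 ± 0.19 (SE) and an edgeR adjusted p of 0.683. At day 4 the libraries with the lowest Clec7a, replicates 3 and 4, were also the deepest, and in the 6 shallower libraries of the series the log2 fold change was -0.16, with an edgeR adjusted p of 0.621. These replicates were also the lowest of day 4 for Clec4d, Clec4e and Clec4n. In the 6 shallower libraries those genes stayed called lower, at log2 fold changes of -1.16, -0.99 and -0.60. Their edgeR adjusted p-values there were 0.0150, 0.0197 and 0.00473. GENCODE M21 lists the gene as a polymorphic pseudogene, a class whose coding state differs between mouse strains.

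MDL-1, the product of Clec5a, pairs with DAP12 and was the least abundant of the 9. Clec5a was at 68.6, 63.7, 78.6, 64.0 and 60.5 CPM at day 14, against 96.3, 64.9, 62.6 and 67.4 CPM at day 4. The days overlapped, and day 4 replicate 1 stood apart from the other day 4 libraries, as it did for Clec4e. The means were 67.1 ± 7.05 CPM at day 14 (SD, n = 5) and 72.8 ± 15.8 CPM at day 4 (SD, n = 4), with a log2 fold change of -0.12 ± 0.13 (SE) and an edgeR adjusted p of 0.519. Without day 4 replicate 1 the log2 fold change was 0.041.

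DCIR, the product of Clec4a2, is an inhibitory receptor, and its loss in mice is known to enlarge the dendritic cell pool. Clec4a2 was at 278, 301, 224, 313 and 266 CPM at day 14, against 194, 212, 192 and 181 CPM at day 4. Every day 14 library lay above every day 4 library, with day 14 replicate 3 the lowest of its day. The means were 276 ± 34.7 CPM at day 14 (SD, n = 5) and 195 ± 13.04 CPM at day 4 (SD, n = 4), with a log2 fold change of 0.51 ± 0.10 (SE) and an edgeR adjusted p of 0.00315. Among its 50-base stretches 6.69% also occur in another gene, chiefly its neighbour Clec4a4, and its counts were not whole in all 9 libraries. Clec4a4 itself averaged 1.38 ± 0.456 CPM at day 14 (SD, n = 5) and 1.82 ± 0.389 CPM at day 4 (SD, n = 4), far below Clec4a2 on either day. Clec4a2 also overlaps the processed pseudogene Gm44132 on the same strand.

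MICL, the product of Clec12a, is an inhibitory receptor that binds uric acid crystals from dead cells. Clec12a was at 201, 218, 174, 212 and 169 CPM at day 14, against 149, 155, 143 and 113 CPM at day 4. Again no library of day 14 was as low as any of day 4. The means were 195 ± 22.3 CPM at day 14 (SD, n = 5) and 140 ± 18.8 CPM at day 4 (SD, n = 4), with a log2 fold change of 0.48 ± 0.11 (SE) and an edgeR adjusted p of 0.00744. In the 6 shallower libraries alone, 4 of day 14 and 2 of day 4, the calls of both inhibitory receptors ended: Clec4a2 was at 0.43 with an edgeR adjusted p of 0.0744 and Clec12a at 0.33 with 0.126. Both were called in each of the 9 fits that left out 1 library.

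Clec4a1 and Clec4a3 are close relatives of Clec4a2 in the same cluster. Clec4a3 was at 306, 326, 243, 293 and 246 CPM at day 14, against 223, 267, 268 and 216 CPM at day 4. Most day 14 libraries were higher, but 2 of them lay among the day 4 libraries. Clec4a3 averaged 283 ± 36.8 CPM at day 14 (SD, n = 5) and 243 ± 27.6 CPM at day 4 (SD, n = 4), with a log2 fold change of 0.22 ± 0.11 (SE) and an edgeR adjusted p of 0.165. Clec4a1 was at 301, 322, 254, 304 and 264 CPM at day 14, against 279, 292, 317 and 266 CPM at day 4. Its means were 289 ± 28.9 CPM at day 14 (SD, n = 5) and 289 ± 21.5 CPM at day 4 (SD, n = 4), with a log2 fold change of 0.00 ± 0.09 (SE) and an edgeR adjusted p of 0.986. Its days overlapped in full, and the sign of so small a value turned with the scaling and the libraries used.

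Of the 9 genes, 6 lie in the Dectin-2 cluster of chromosome 6, among other lectin genes, in the order Clec4a1, Clec4a3, Clec4a4, Clec4b1, Clec4a2, Clec4b2, Clec4n, Clec4d and Clec4e. The 3 genes at one end, Clec4n, Clec4d and Clec4e, were the 3 called lower. In the middle lies Clec4b1, the gene of the activating receptor DCAR, which is not one of the 9. Clec4b1 averaged 60.9 ± 7.49 CPM at day 14 (SD, n = 5) and 11.3 ± 1.51 CPM at day 4 (SD, n = 4). It was higher by a log2 fold change of 2.43 ± 0.12 (SE) with an edgeR adjusted p of 1.59e-07. It was called under each of the 24 alternative settings. Clec4a2 beside it was higher too, while Clec4a4 did not pass the test and Clec4b2, with means of 0.107 CPM in day 14 libraries and 0.127 CPM in day 4 libraries, was too low to be tested. Neighbours in 1 cluster thus moved in both directions.

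**Figure D3:**
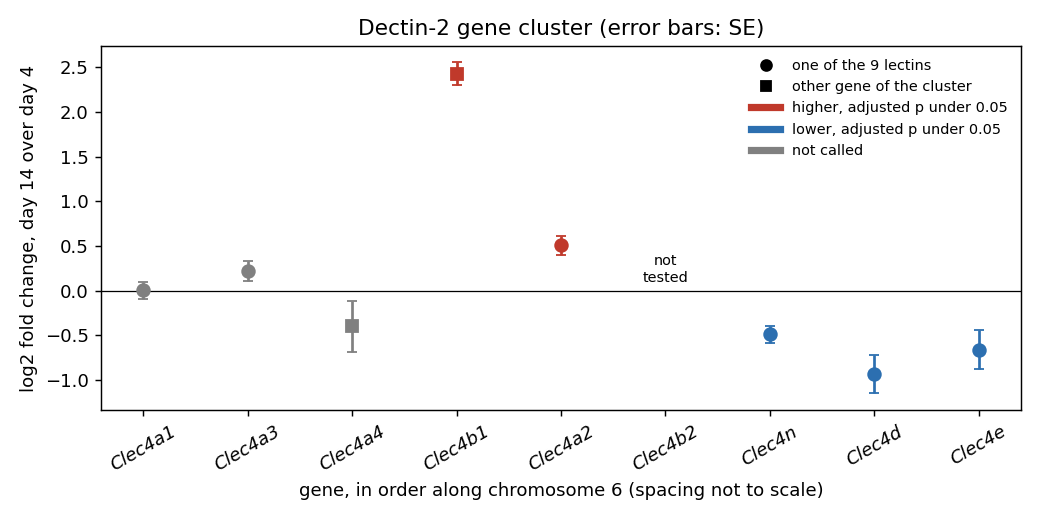
Log2 fold change of day 14 over day 4 (vertical axis, error bars are SE) for the genes of the Dectin-2 cluster in their order along chromosome 6, with circles for the lectin genes followed here and squares for the other genes. Clec4b1 stands highest at 2.43, and Clec4n, Clec4d and Clec4e lie below 0.

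Levels of different genes were compared per kilobase of exon, from GENCODE M21 exon lengths. On this scale Clec7a led at day 14 with 289 ± 61.9 CPM per kilobase (SD, n = 5), followed by Clec4d with 232 ± 63.4, Clec4a3 with 213 ± 27.7, Clec4e with 213 ± 30.3, Clec4n with 209 ± 10.7 and Clec4a1 with 186 ± 18.5 CPM per kilobase. The ranges of mean ± SD of neighbours among these 6 overlapped. Clec4a2 with 106 ± 13.3, Clec12a with 78.0 ± 8.92 and Clec5a with 17.6 ± 1.84 CPM per kilobase each had a range of mean ± SD below that of the gene before. At day 4 the order was led by the 3 genes of the Fcer1g-coupled receptors, Clec4d with 444 ± 136, Clec4e with 336 ± 142 and Clec4n with 293 ± 34.7 CPM per kilobase (SD, n = 4), and then Clec7a with 268 ± 72.2 CPM per kilobase. The SDs of neighbours among these 4 overlapped. Clec4a1 and Clec4a3 followed at 185 ± 13.8 and 183 ± 20.8 CPM per kilobase, then Clec4a2 at 74.4 ± 4.98, Clec12a at 55.9 ± 7.52 and Clec5a at 19.1 ± 4.12 CPM per kilobase. Among 11655 genes ranked by level per length, Clec4d held rank 208 at day 14 and rank 90 at day 4, and Clec5a rank 3239 at day 14 and rank 3045 at day 4.

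The summed level of the 9 genes was 1542 ± 122 CPM per kilobase at day 14 (SD, n = 5) and 1860 ± 377 CPM per kilobase at day 4 (SD, n = 4). Clec4n, Clec4d and Clec4e together held 42.3% ± 4.69 of this sum at day 14, between 37.7% and 49.4% in single libraries. At day 4 they held 57.1% ± 4.89, between 52.6% and 63.9%. The days did not overlap, in a share built from the levels given above. The share of Clec4a2 was 6.88% at day 14 and 4.10% at day 4, and that of Clec12a was 5.07% at day 14 and 3.05% at day 4.

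**Figure D4:**
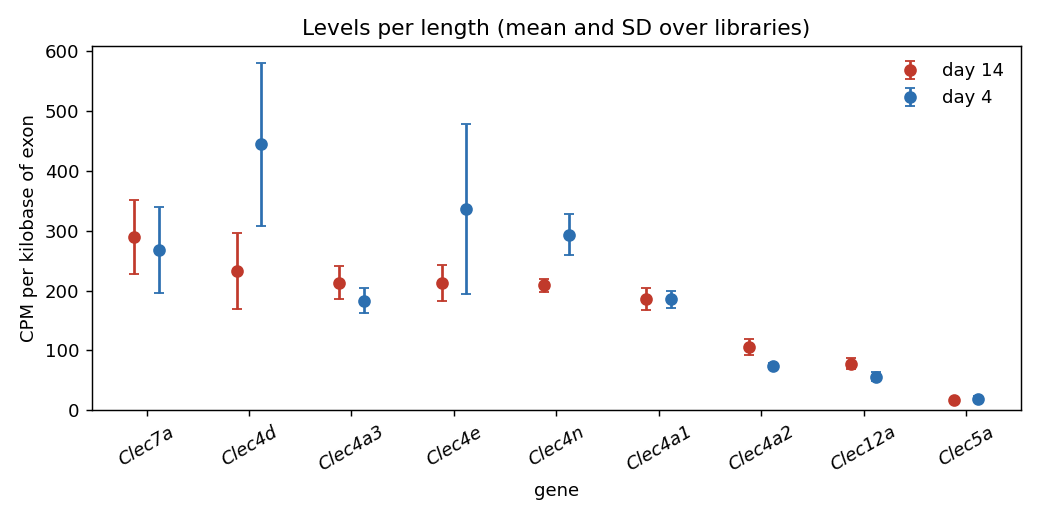
Level per length, in CPM per kilobase of exon (mean and SD), of the 9 lectin genes at day 14 (red, n = 5) and day 4 (blue, n = 4), ordered by the day 14 mean. Clec4d, Clec4e and Clec4n stand above Clec7a at day 4 only, and Clec5a is lowest on both days.

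The genes most like each receptor across the 9 libraries were found by the root mean square difference of log2 CPM after centring each gene, over 8788 genes with a mean of at least 5 CPM. For Clec4d these were Ptgs2, the inducible cyclooxygenase, at 0.12 and Gsr at 0.13, and for Clec4e Cd200 at 0.10 and Abtb2 at 0.14. Clec4n was closest to Pcnx at 0.05 and Surf4 at 0.07. Clec4a2 was closest to Tmem168 at 0.04 and Ccna2 at 0.05, and Clec12a to Vps13a at 0.07. Of the genes that did not pass the test, Clec7a was closest to Map2k4 and Tes, Clec4a1 to Kdm4c and Ly9, Clec4a3 to Arntl and Fbxo8, and Clec5a to Polr2a and Mapkapk2. Among the receptors themselves Clec4a2 and Clec12a were the closest pair at 0.11, followed by Clec4a1 and Clec4a3 at 0.12, while Clec4d and Clec4a2 were the farthest apart at 0.82. Clec4d and Clec4e differed by 0.25. A small difference can also come from genes that vary little. Clec4a1 varied around its own mean by only 0.115, less than its difference of 0.122 from Clec4a3. These values describe the same 9 libraries, whose depth and cell makeup all genes share.

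Counts in the gene lists of the pathway stand against shares of 15.9% higher and 15.1% lower over all genes tested. Of the 3 adaptors of the receptors, 1 was called: Tyrobp (DAP12) was lower at 446 ± 45.3 CPM at day 14 (SD, n = 5) and 550 ± 43.0 CPM at day 4 (SD, n = 4), with an edgeR adjusted p of 0.0316. Fcer1g, on which Dectin-2, MCL and Mincle depend, averaged 591 ± 27.0 CPM in day 14 libraries and 646 ± 45.8 CPM in day 4 libraries and did not pass the test, nor did Hcst (DAP10). Of 18 tested genes of the Syk and Card9 route, 3 were higher, 4 lower and 11 not called, with a median log2 fold change of -0.03. The higher ones were Prkcd (0.25), Malt1 (0.54) and Map3k7 (0.26), and the lower ones included the Src family kinases Src (-1.30) and Fgr (-0.62) and the exchange factor Vav1 (-0.32), all as log2 fold changes. Ikbkg, tested on 8 libraries, was lower at -0.52. Neither Syk nor Card9 passed the test: Syk averaged 770 ± 45.8 CPM in day 14 libraries and 706 ± 77.2 CPM in day 4 libraries, and Card9 33.5 ± 4.96 CPM in day 14 libraries and 35.9 ± 8.27 CPM in day 4 libraries.

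Of 7 tested genes of inhibitory signalling, the adaptor gene Dok2 was higher (log2 fold change 0.80), Dok3 lower (-0.77) and 5 not called. The phosphatase gene Ptpn6, whose product the motif of DCIR and MICL recruits, had a log2 fold change of -0.32 with an edgeR adjusted p of 0.0829. Inpp5d, another phosphatase gene, was at -0.18 with an edgeR adjusted p of 0.179. Of 15 genes that the Dectin and Card9 route is known to induce, 3 were higher, 2 lower and 10 not called, with a median log2 fold change of -0.20. The higher ones were the interleukin-12 subunit gene Il12b (2.75), Nfkbiz (0.91) and Egr2 (0.69), and the lower ones Ptgs2 (-0.84) and Egr3 (-0.51). Il12b was at a low level, at 4.54 to 9.45 CPM in day 14 libraries and 0.475 to 1.57 CPM in day 4 libraries. Il1b averaged 1569 ± 451 CPM in day 14 libraries (SD, n = 5) and 2182 ± 793 CPM in day 4 libraries (SD, n = 4) and did not pass the test, with an edgeR adjusted p of 0.150.

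Among 11 tested factors known to regulate these receptors in myeloid cells, 2 were higher, 3 lower and 6 not called. The nuclear receptor gene Pparg (0.96) and the GM-CSF receptor gene Csf2ra (0.64) were higher, and Hif1a (-0.89), Il4ra (-0.54) and Tnfrsf1a (-0.35) were lower, as log2 fold changes. Spi1, the gene of PU.1, averaged 163 ± 16.7 CPM in day 14 libraries and 177 ± 31.1 CPM in day 4 libraries and did not pass the test, as was the case for Cebpb. Of 12 other receptors for fungi and bacteria, 3 were higher and 4 lower. The lectin gene Mrc1 (0.80) and the scavenger receptor gene Cd36 (0.63) were higher, as was the lectin gene Cd209a, which averaged 146 CPM in day 14 libraries and 55.1 CPM in day 4 libraries, and the scavenger receptor genes Marco (-2.48) and Msr1 (-0.68), Nod2 (-0.78) and Itgam (-0.44) were lower. Marco was at a low level, at 0.934 to 2.99 CPM in day 14 libraries and 7.18 to 9.96 CPM in day 4 libraries. Of 11 other tested lectin-like genes of the same chromosome 6 clusters, Clec4b1, Klrk1 (2.06), Clec9a (1.42) and Clec2d (0.52) were higher and 0 were lower. Over the 7 lists, 77 genes were tested, of which 16 were higher and 15 lower, 40.3% in all against 31.1% of all genes tested, with a median log2 fold change of -0.11.

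**Figure D5:**
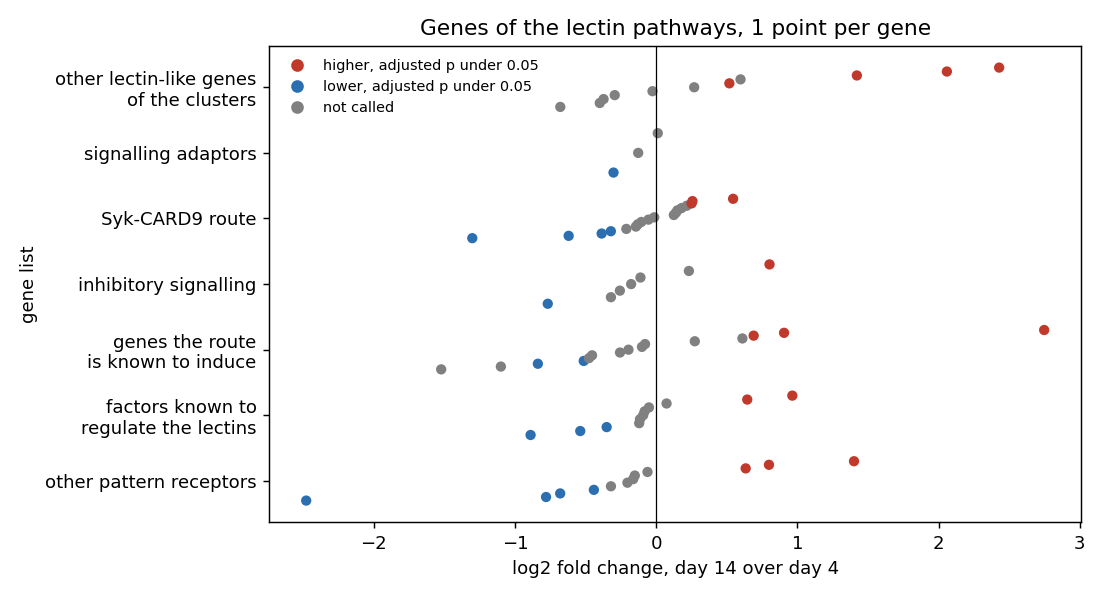
Log2 fold change of day 14 over day 4 (horizontal axis) for the tested genes of 7 pathway lists, 1 point per gene and 1 row per list, red where higher, blue where lower and grey where not called at an adjusted p under 0.05. Higher and lower genes stand side by side in 5 of the 7 lists, and Il12b at 2.75 and Marco at -2.48, both genes of low CPM, lie at the ends.

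Macrophage markers were abundant: Lyz2 averaged 11436 CPM at day 14 and 10713 CPM at day 4, and of 8 tested markers 2 were higher and 4 lower. Markers of other cells also moved with the day. Of 10 tested dendritic cell markers 6 were higher and 0 lower, with sums of 761 to 863 CPM at day 14 and 460 to 582 CPM at day 4. The most abundant in these sums were 2 lectin genes. Clec10a was at 429 to 486 CPM at day 14 and 274 to 413 CPM at day 4. Cd209a, also among the pattern receptors above, was at 119 to 178 CPM at day 14 and 45.7 to 61.9 CPM at day 4. Which cells expressed them was not tested. Of 11 tested fibroblast markers 0 were higher and 7 lower, with sums of 5817 to 9468 CPM at day 14 and 10724 to 21441 CPM at day 4. Of 7 monocyte markers 1 was higher and 4 lower, with a median log2 fold change of -1.52. Their sums, at 3590 to 4328 CPM at day 14 and 3173 to 3616 CPM at day 4, did not fall with this median. The most abundant was F13a1, at 3056 to 4083 CPM at day 14 and 2317 to 2822 CPM at day 4. Of 6 eosinophil and mast cell markers 4 were higher and 1 lower, and of 7 keratinocyte markers 4 were higher. Of 7 erythroid, platelet and endothelial markers 3 were higher and 1 lower. Lymphocyte markers summed to 0.534 to 1.03 CPM at day 14 and 0.647 to 1.47 CPM at day 4. The sums of dendritic cell and fibroblast markers did not overlap between days, and with the mean log2 level of either as a covariate none of the 9 receptors was called, so their part and that of the day cannot be told apart.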

How the data were processed

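RNA of sorted wound macrophages was sequenced as paired ends from TruSeq v2 libraries, per the labels' protocols, a kit that does not mark the strand. The authors deposited estimated counts per gene symbol, not normalized, made with CASAVA 1.8, HISAT2 2.1.0, SAMtools 1.4, Partek 6.6 and DESeq2 on mm10, per the submitters' processing notes. The role of each tool and the gene annotation are not given in the sources used here. A mean of 17.2% of values per library were not whole, and all were rounded. The deposited normalized table was not used. Library depth was 17982633 to 57809918 counts.

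In day 14 replicate 5, 807 of 810 well counted genes beyond the break were at 0 (well counted means at least 50 counts in each other library). Beyond the break are Aplp2 and the genes after it on chromosome 9, those of X and Y, and some of unknown position. The last were taken only if well counted and at 0 in this library, so their 0 was set by the choice. All 1503 genes beyond the break were left out, and list genes among them were tested on the 8 other libraries with all genes. Positions came from RefSeq on GRCm38.p6, with 17103 genes matched by symbol, 1097 by an older name and 103 not matched. Exon lengths and the annotation printed came from GENCODE M21 on the same assembly.

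Day 14 was tested against day 4 in all 9 libraries with edgeR 4.0.16 in R 4.3.3 (TMM, filterByExpr, robust glmQLFit, glmQLFTest, two-sided), with Benjamini-Hochberg adjustment over 12289 genes. SEs were derived from the F statistic. The procedure was tested on simulated counts. Log2 CPM for likeness and marker scores used a prior count of 2. Alternatives were other scalings, DESeq2 1.42.0, limma-voom (limma 3.58.1), other low-count filters, non-robust dispersion, all genes, fewer libraries and covariates.

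The 9 receptors, the 7 pathway lists and the 9 marker lists were chosen with earlier results of these data known. Genes named were taken from the 9 receptors, the 2 of lowest p, the most abundant and any in a direction that 5 or fewer members took for each pathway list, the 2 most abundant of each marker list, and 2 genes most like each receptor. Hcst, Card9, Ptpn6, Spi1, Cebpb, Clec4a4, Clec4b2, Mpo and Elane were named outside this rule, after their values were seen. Some genes that this rule takes are not reported here.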

Additional observations from a re-analysis of the deposited data

Results flagged for a closer look

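Of 116 groups of libraries examined, 2 per gene, 8 held a library far from the others of its day by Dixon's ratio, which chance does in about 1 group in 20. Among the 9 receptors this was Clec5a, at 96.3 CPM in day 4 replicate 1 against 62.6 to 67.4 CPM in the other day 4 libraries. The same library stood high for Il1b, at 3363 CPM against 1711 to 1917 CPM, for Nod2, at 90.9 CPM against 57.0 to 58.8 CPM, and for the neutrophil marker S100a9, at 970 CPM against 283 to 347 CPM. It was also the highest day 4 library for Clec4d, Clec4e, Clec4n and Clec7a, which did not reach Dixon's critical value. Ptgs2 was at 1172 CPM in day 14 replicate 3 against 740 to 841 CPM in the other day 14 libraries, and that library was the highest of its day for Clec4d, Clec4e and Clec5a. Syk was at 689 CPM in day 14 replicate 2 against 776 to 799 CPM. Clec9a was at 1.37 CPM in day 4 replicate 2 against 0.701 to 0.735 CPM, and Pecam1 at 20.8 CPM in day 4 replicate 3 against 24.6 to 25.3 CPM.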

How the results depend on the processing

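Clec4d, Clec4n, Clec4a2 and Clec12a kept their call in 22, 22, 21 and 21 of the 24 alternatives and in all 9 that left out 1 library. Clec4e lost its call with no low-count filter (-0.66, adjusted p 0.0535), with all genes in the fit (-0.66, 0.0693) and with the neutrophil covariate (-0.37), and ranged from -0.82 to -0.33 without 1 library. In the 6 shallower libraries 972 genes were higher and 987 lower, 0 receptors were higher, 9 pathway genes were lower, Clec4a2 was at 0.43, Clec12a at 0.33, Clec7a at -0.16 and Clec4a1 at -0.011; fewer libraries were tested there. Clec4d, Clec4e and Clec4n stayed called lower in that fit, at -1.16, -0.99 and -0.60. With the fibroblast covariate 487 genes were higher and 365 lower, 0 receptors were called, 6 pathway genes were higher and 3 lower, and Clec4d was at -0.76, Clec4e at -0.74, Clec4n at -0.43, Clec4a1 at -0.071, Clec4a2 at 0.53 and Clec12a at 0.52. With the dendritic cell covariate 106 genes were higher and 178 lower, 0 receptors were called, 2 pathway genes were higher and 0 lower, and Clec4d was at -0.15, Clec4e at 0.64, Clec4n at -0.21, Clec4a2 at 0.58, Clec5a at 0.64, Clec7a at 0.90 and Clec12a at 0.69. Both covariates' scores do not overlap between days, so those fits cannot tell the markers from the day.

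Of the uncalled genes, Clec4a1 turned to -0.0021 with RLE scaling, -0.0090 with total counts, -0.0020 with DESeq2, -0.00092 with limma-voom, -0.0018 with no filter, -0.0062 with a minimum of 5 CPM, -0.00087 with all genes and -0.097 with the neutrophil covariate, and lay between -0.053 and 0.041 without 1 library. Clec7a turned to -0.063 with library size as a covariate and lay between -0.031 and 0.27 without 1 library. Clec5a turned to 0.027 with the neutrophil covariate and lay between -0.20 and 0.041 without 1 library. Pathway genes called lower, 15 of 77, numbered 9 to 19 without 1 library, with 9 without day 14 replicate 1 or 2. All these values are log2 fold changes of day 14 over day 4 or counts of genes, and where no cause is given the cause was not tested. No paired analysis was possible because the labels give the libraries no shared replicate numbers. With 5 and 4 libraries, the precision of single genes was limited by the spread between libraries, as Clec7a and Clec4e show.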
